A study of Triticum aestivum with 12 samples.

Results

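The genes described here are 90 of the 99386 gene identifiers counted in bread wheat leaves. They were chosen by their measured levels as low in droughted leaves sprayed with LRM, with means in water-sprayed leaves that drought changed little. Levels are CPM, the count of a gene scaled to the total count of its library. W is the log2 ratio of mean CPM, drought over full irrigation, in water-sprayed leaves, L is the same ratio in LRM-sprayed leaves, and 0.5 CPM was added to both means. A member had a mean of at least 5 CPM over the 6 irrigated libraries, L of at most -1, W between -0.25 and 0.25, and its highest droughted LRM library below the lowest of the other 9 libraries. Every one of the 12 libraries was used to choose the members, so L, W and the separation of the libraries are descriptions and carry no test.

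The libraries came from polyA RNA of leaves of wild-type Triticum aestivum, variety Chinese Spring L42, in 4 groups of 3. Pots that retained 180 ml were watered 2 times a week with 180 ml (irrigated_water and irrigated_LRM) or with 30 ml (drought_water and drought_LRM). LRM, a biostimulant made from microalgae, was sprayed on the foliage at 0.5% in water from the day after planting and then at intervals of 14 days, and the other plants were sprayed with water. The age of the plants is not given in the sources used here, and the labels do not state that each library is a different plant. The p-values therefore reflect only how far these libraries varied, which may be technical.

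When water is short, leaves close their stomata, and the hormone abscisic acid drives much of the change in transcripts. Genes of water-stress protection typically rise, while genes of photosynthesis, growth and cell wall formation are often lowered as the deficit deepens. Plant biostimulants are applied in small amounts to change growth or stress tolerance and not as a fertiliser. Bread wheat carries the subgenomes A, B and D, so most of its genes exist as near-identical copies on 3 chromosomes. The counts of any gene named below may include reads of such a copy. The identifiers give the chromosome arm (7DL is the long arm of chromosome 7D) but no name. As 0 of them were found in RefSeq's table of wheat genes (IWGSC CS RefSeq v2.1), no function is assigned to a member, and leaf marker genes could not be looked up. In a bulk sample of leaf, fewer cells of a type and less RNA per cell cannot be told apart.

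Total counts ran from 17541561 in drought_LRM 2 to 47305447 in drought_water 3. The libraries that stood farthest from their 2 partners over all genes were irrigated_water 1, drought_water 3, irrigated_LRM 1 and drought_LRM 2. Their mean chi-square per degree of freedom against the partners was 19.8, 13.5, 8.84 and 23.6, against 4.17, 6.49, 5.23 and 15.4 between the partners.

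Of the 17517 genes at the 5 CPM floor, 360 had L of at most -1, and 99 of those had W within its limits. In 10.3% of the genes at the floor all drought_LRM libraries lay below the other 9, and requiring that separation left the 90 members. L ran from -2.62 to -1.0003 over the members with a median of -1.17, beside 0.10 over all genes at the floor. It was at most -1.5 in 8 members and above -1.2 in 51, so most members lay near the limit. All 90 were also lower in droughted than in irrigated LRM-sprayed leaves by edgeR's quasi-likelihood test (log2 changes of -2.99 to -1.17), beside 8.6% of all tested genes, a count that the rule itself brings about.

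**Figure D1:**
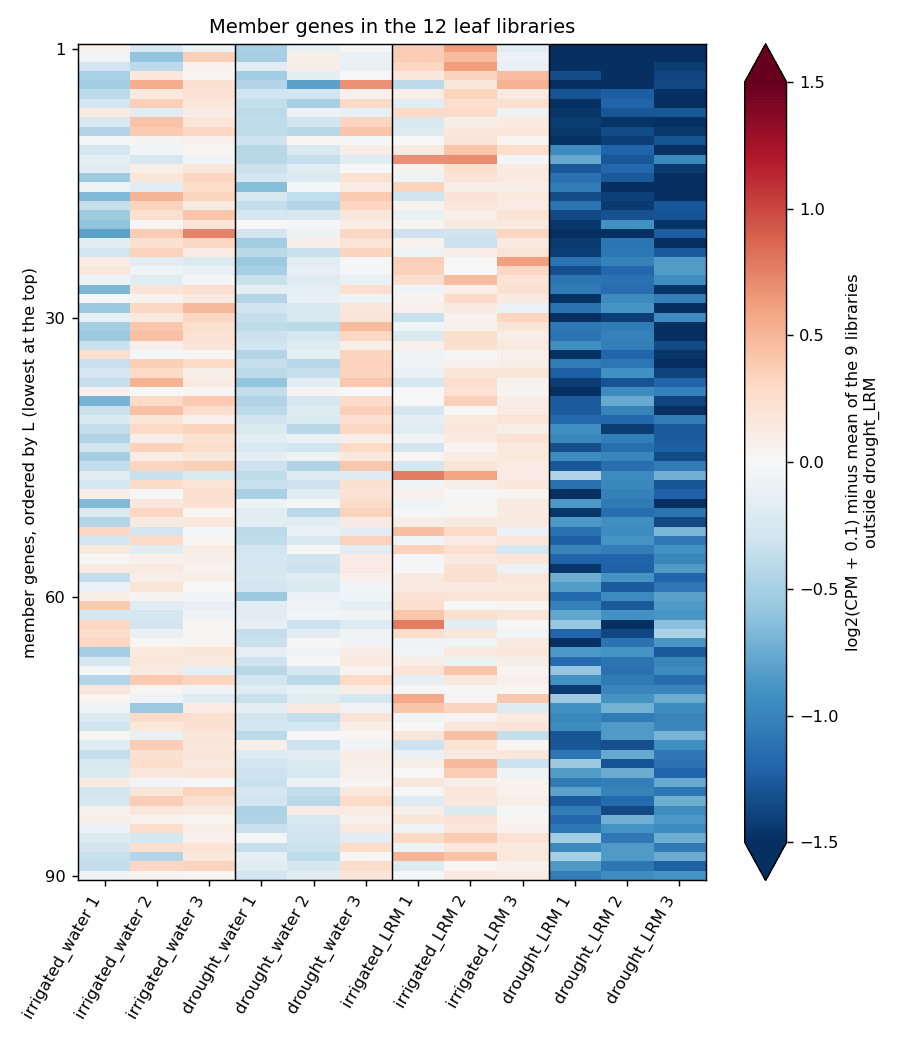
Each row is 1 of the 90 member genes, ordered by L, and each column 1 of the 12 libraries. Colour gives log2(CPM + 0.1) minus the gene's mean over the 9 libraries outside drought_LRM, from -1.5 (blue) to 1.5 (red). The drought_LRM columns are blue throughout, and irrigated_water 1, drought_water 1 and drought_water 2 are paler blue in many rows.

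Together the members held 0.820%, 1.12% and 1.16% of the counts in irrigated_water 1, 2 and 3, and 0.863%, 0.913% and 1.10% in drought_water 1, 2 and 3. In irrigated_LRM the shares were 1.04%, 1.16% and 1.11%, and in drought_LRM 0.499%, 0.509% and 0.430%. The drought_LRM libraries were low and close together, while irrigated_water 1 stood below drought_water 1. As group means the share was 1.03% ± 0.184 in irrigated_water, 0.958% ± 0.124 in drought_water, 1.11% ± 0.0617 in irrigated_LRM and 0.480% ± 0.0430 in drought_LRM (SD, n = 3). The 5 members highest in irrigated leaves made up 53.3% of the members' summed irrigated CPM, so these shares describe a few abundant transcripts.

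By count share the members were mostly well above the floor, with a median irrigated CPM of 30.6, beside 11.5 over the genes at the floor. There were 20 members between 5 and 10 CPM, 40 between 10 and 50, 14 between 50 and 100, and 16 of 100 CPM or more. The median L was -1.16, -1.18, -1.19 and -1.17 in these bands, values that the limit of -1 largely sets. The lowest count of a member in any library was 25, for Traes_1AL_42189A8B0 in drought_LRM 2, with an exact 95% Poisson interval of 16.2 to 36.9 that covers counting error only.

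The gene with the lowest L was Traes_7DL_630534A5F. It stood at 17.1, 14.1 and 15.7 CPM in irrigated_water 1, 2 and 3, at 11.8, 15.3 and 16.5 CPM in drought_water, at 21.3, 25.5 and 14.8 CPM in irrigated_LRM and at 1.74, 3.14 and 3.92 CPM in drought_LRM. The water-sprayed groups overlapped, and the drought_LRM libraries lay far below every other. Its L was -2.62 and its W -0.10.

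Traes_7AL_3ACEF0277 had the next lowest L, at -1.99. Its values were 8.85, 6.01 and 11.7 CPM in irrigated_water, 6.42, 9.69 and 8.498 CPM in drought_water, 11.9, 12.6 and 8.51 CPM in irrigated_LRM and 1.86, 2.68 and 2.67 CPM in drought_LRM. Outside drought_LRM the 3 groups overlapped one another. The same pair also had the lowest mean drought_LRM level in relation to the lowest of the other 9 libraries.

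Traes_7BS_0997D563B, with L of -1.94, was singled out after its values were seen because its W of 0.14 was the highest of all members. It stood at 45.5, 42.1 and 57.6 CPM in irrigated_water, 49.4, 59.5 and 51.5 CPM in drought_water, 68.9, 85.9 and 50.8 CPM in irrigated_LRM and 13.3, 18.5 and 20.7 CPM in drought_LRM. Droughted and irrigated water-sprayed leaves overlapped in this gene, and irrigated_LRM 2 was its highest library.

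The most abundant member by count was Traes_6AS_F8D06BEC8. It had 1099, 1708 and 1756 CPM in irrigated_water, 1416, 1476 and 1673 CPM in drought_water, 1501, 1701 and 1722 CPM in irrigated_LRM and 853, 833 and 647 CPM in drought_LRM. Among the 9 other libraries irrigated_water 1 was the lowest, and the other 8 lay between 1416 and 1756 CPM. L was -1.08 and W was 0.0005.

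Traes_1BL_E38BBC0DA1, the second by count, ran at 1046, 1579 and 1523 CPM in irrigated_water, 1183, 1205 and 1459 CPM in drought_water, 1257, 1480.1 and 1503 CPM in irrigated_LRM and 635, 798 and 642 CPM in drought_LRM. Here too irrigated_water 1 was the lowest library outside drought_LRM, and drought_water 3 was the highest of its group. Per length the order of these genes was the reverse. The authors' second table was taken as FPKM (fragments scaled to transcript length and to the total of the library), a unit inferred from its values. In it Traes_1BL_E38BBC0DA1 had a mean of 877 in irrigated_water, the highest of all members, and Traes_6AS_F8D06BEC8 had 314. Over the members the mean FPKM in irrigated_water ran from 1.54 to 877 with a median of 28.9, and in drought_LRM from 0.615 to 438 with a median of 12.2.

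**Figure D2:**
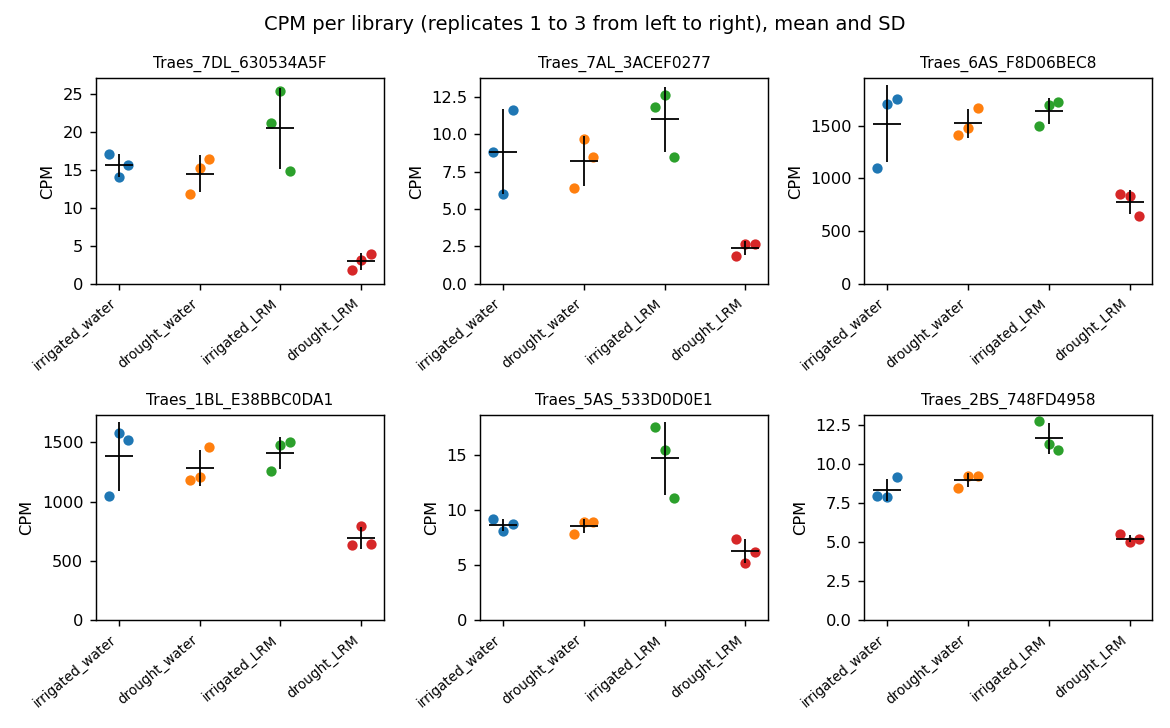
CPM of 6 member genes in each library, with 1 panel per gene, groups on the horizontal axis, 3 points per group for replicates 1 to 3 from left to right, and a black mark with bars for the mean and SD (n = 3). In every panel the drought_LRM points lie lowest, and in Traes_6AS_F8D06BEC8 and Traes_1BL_E38BBC0DA1 irrigated_water 1 (1099 and 1046 CPM) is the lowest of the other libraries.

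In water-sprayed leaves the members were not level under drought. W was below 0 in 81 of the 90 members and at most -0.1 in 69, with a median of -0.17, beside 0.01 over all genes at the floor. Only 9 members had W above 0. By edgeR's test of drought with water 0 members passed at an adjusted p below 0.05 and 0 at an unadjusted p below 0.05, beside 0.83% of all tested genes past the adjusted threshold in either direction and 6504 of 57226 at the unadjusted one. The limits on W bring that about. In 87 members (96.7%) the drought_water and irrigated_water libraries overlapped, beside 82.4% of the genes at the floor. All drought_water libraries lay below all irrigated_water libraries in 3 members (3.33%), beside 8.57% of the genes at the floor. These were Traes_2AL_2F5D5C19A, Traes_2AL_E5A33D194 and Traes_3DS_B6D1ED3A9, where W was -0.23, -0.25 and -0.24.

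The members were the upper end in W of a larger set of genes lowered in droughted LRM leaves. With any W allowed, 324 genes met the floor, the limit on L and the separation. Their W ran from -1.75 to 0.25 with a median of -0.35, and it was below 0 in 314 of them. Of the genes outside the limits on W, 233 lay below -0.25 and 1 above 0.25. W thus ran on without a break across the limit that parts the members from the 233.

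**Figure D3:**
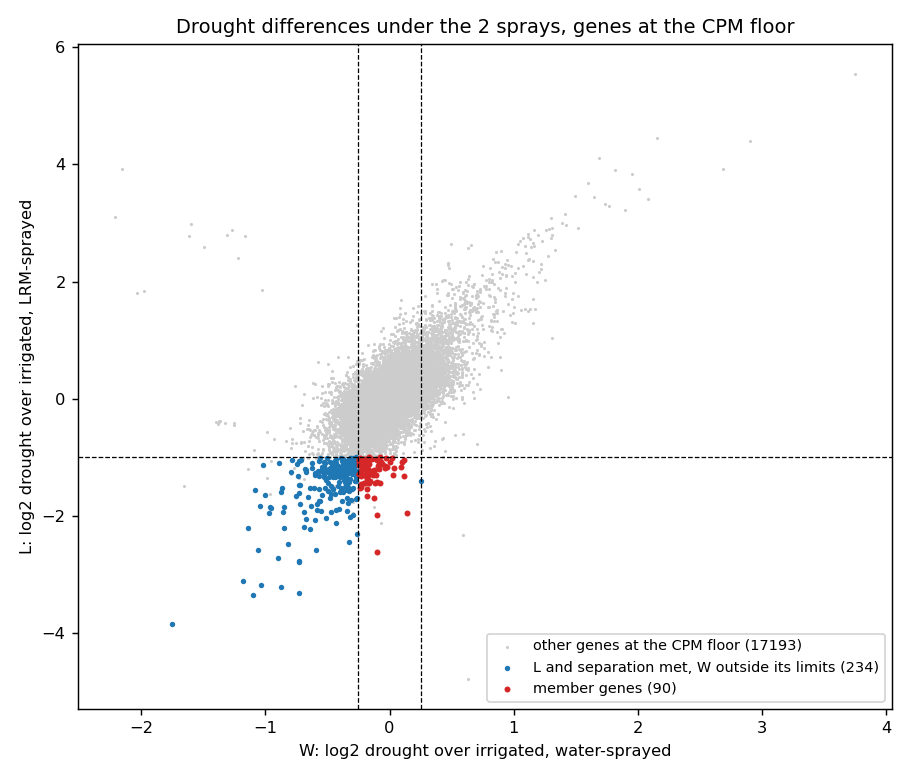
Each point is 1 of the 17517 genes at the 5 CPM floor, with W (water-sprayed leaves) on the horizontal and L (LRM-sprayed leaves) on the vertical axis, both log2 drought over irrigated. Dashed lines mark the limits of -1 for L and of -0.25 and 0.25 for W. The 90 members in red lie beside the 234 genes in blue that met the other conditions with W outside its limits, and most members lie left of 0.

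The drought_water libraries did not behave alike. In log2 terms relative to each gene's mean over the 9 libraries outside drought_LRM, the median member stood at -0.32 in drought_water 1, -0.20 in drought_water 2 and 0.12 in drought_water 3. Drought_water 1 and 2 both lay below drought_water 3 in 82.2% of the members, beside 22.9% of the genes at the floor. The irrigated_water libraries also differed: the median member stood at -0.24 in irrigated_water 1, against 0.15 in each of irrigated_water 2 and 3. In 59 members (65.6%) irrigated_water 1 was the lowest of its group, beside 16.1% of the genes at the floor, whose median in that library was 0.13. In irrigated_LRM the medians were 0.01, 0.16 and 0.13. Both drought_water 1 and 2 lay below both irrigated_water 2 and 3 in 72 members (80%), beside 19.6% of the genes at the floor.

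For the median member, W averaged over an irrigated_water 1 and a drought_water 3 that were low and high within their own groups. These were also the libraries farthest from their partners over all genes. Not every member had this pattern: in 31, irrigated_water 1 was not the lowest of its group, and their median W was -0.16. Without drought_water 3 the members' median W was -0.30, and 56 of the 90 had W below -0.25. That left 37 genes that met the rule, 34 of them among the 90. Without irrigated_water 1 the median W was -0.22, 42 members had W below -0.25, and 65 genes met the rule, 48 of them among the 90. Leaving out other water-sprayed libraries brought W nearer to 0. Its median was -0.07 without drought_water 1, when 155 genes met the rule, 88 of them among the 90. It was -0.11 without drought_water 2 and also -0.11 without irrigated_water 2 or irrigated_water 3, when 132, 122 and 120 genes met the rule. Without the farthest library of each group, an alternative chosen after the data were seen, 31 genes met the rule, 17 of them among the 90, and edgeR called 31 of the 90 members lower under drought with water. Calls over all tested genes rose too in that setting, from 49 to 905 lower and from 426 to 1032 higher. These are 31 of 90 members and 905 of all tested genes (57226 with all libraries). The rule chose the members on W in these same libraries, and W was already below 0 in 81 of them. Their share is therefore no test beside unselected genes, and whether the gain was particular to the members was not tested. The wording that these genes were lowered only in droughted LRM leaves thus holds as a limit on W and not for each library. That limit was set on group means of all 12 libraries scaled to library totals, and W was below 0 in 81 members. The part that irrigated_water 1 and drought_water 3 have in the members' W was not tested beyond these values.

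**Figure D4:**
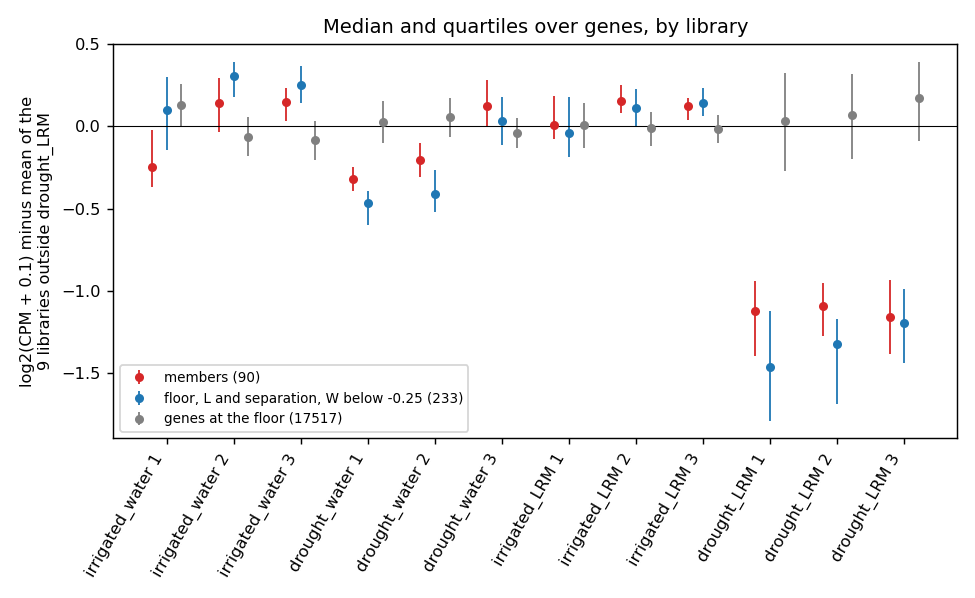
Medians (points) and quartiles (bars) over genes of log2(CPM + 0.1) minus the gene's mean over the 9 libraries outside drought_LRM, by library. Members are red, the 233 genes with W below -0.25 that met the other conditions are blue, and all 17517 genes at the floor are grey. Members and blue genes share low values in drought_water 1 and 2, while in irrigated_water 1 the members lie at -0.24 and the blue genes at 0.10.

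The 233 genes that met the same conditions with W below -0.25 showed the same order of drought_water libraries. Their medians were -0.47, -0.41 and 0.04 in drought_water 1, 2 and 3, each below the members' value there. In irrigated_water 1 they stood at 0.10, where the members stood at -0.24. No test was made of this difference, since W was used to part the sets.

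The members were also split by whether irrigated_water 1 was the lowest of its group, a split made after the values were seen. In the other 31 members irrigated_water 1 stood at a median of 0.09 and drought_water 3 at -0.05. Their L and W had medians of -1.11 and -0.16, beside -1.19 and -0.18 in the 59. The share differed with the level: irrigated_water 1 was lowest in 10 of the 20 members between 5 and 10 CPM and in 14 of the 16 members of 100 CPM or more. Drought_water 1 was the lowest of its group in 27 of the 31 and in 40 of the 59.

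Across the 9 libraries outside drought_LRM the members varied together. The mean pairwise Pearson correlation of their log2 values was 0.475, beside 0.1004 over all pairs of the genes at the floor, given as a description, since the points share libraries and depth and the rule used W. In 38 members the correlation with the mean member profile was above 0.8, and in 6 it was below 0.3. The lowest, at -0.12, belonged to Traes_4AS_C2B77F64F, singled out after its values were seen. It stood at 16.9, 11.4 and 11.8 CPM in irrigated_water, 11.4, 12.4 and 11.7 CPM in drought_water, 15.3, 13.0 and 13.1 CPM in irrigated_LRM and 6.34, 5.30 and 7.10 CPM in drought_LRM. In this gene irrigated_water 1 and irrigated_LRM 1 were the highest libraries. In most members they were the lowest of their own groups, in 59 and 55 of the 90. Over the genes at the floor those shares were 16.1% and 32.8%. The closest pair was Traes_3B_FE414B631 and Traes_5DL_97433B3A2 with r of 0.992, on chromosomes of different groups. Of the 4005 pairs of members, 0 had counts within 5% of each other in every library.

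LRM against water in irrigated leaves is the comparison that the rule set least directly, although its libraries are the baselines of L and W. edgeR called 0 of the 90 members, beside 0% of all 57226 tested genes. At an unadjusted p below 0.05 there were 9 members (10%), beside 8.7% of all tested genes, so the share was near the background. All 9 members past edgeR's unadjusted threshold were higher with LRM, a side that the rule favours, as irrigated_LRM is the baseline of L. DESeq2 called 1 member and gave no adjusted p for 5, and over all genes it called 123 higher and 118 lower. The members' log2 differences ran from -0.34 to 0.76 with a median of 0.05, beside -0.0011 over all tested genes, and were positive in 55 of 90. Without irrigated_water 1 the median was -0.13, and 28 of the 90 were positive, so the direction of the median rested on that library.

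The smallest p in irrigated leaves belonged to Traes_5AS_533D0D0E1. It stood at 9.19, 8.07 and 8.75 CPM in irrigated_water, 7.83, 8.93 and 8.90 CPM in drought_water, 17.5, 15.5 and 11.1 CPM in irrigated_LRM and 7.40, 5.24 and 6.16 CPM in drought_LRM. All irrigated_LRM libraries lay above every other, and the drought_LRM libraries lay just below the water-sprayed ones. Its difference in irrigated leaves was 0.76 on the log2 scale (SE 0.16) with an edgeR adjusted p of 0.376, which did not pass, while DESeq2 gave an adjusted p of 0.0103. Over the alternatives tried the adjusted p ran from 0.0103 to 0.895. Under drought it was lower with LRM by 0.42 as a log2 ratio of the means, so that its L of -1.17 came in larger part from a high irrigated_LRM level.

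Traes_2BS_748FD4958 came second, at 7.93, 7.89 and 9.16 CPM in irrigated_water, 8.46, 9.26 and 9.22 CPM in drought_water, 12.7, 11.2 and 10.9 CPM in irrigated_LRM and 5.497, 5.02 and 5.18 CPM in drought_LRM. The irrigated_LRM libraries were again the highest and did not overlap the water-sprayed ones. The difference in irrigated leaves was 0.48 (SE 0.13, edgeR adjusted p = 0.393, from 0.0616 to 0.895 over the alternatives). In 9 members (10%) all irrigated_LRM libraries lay above all irrigated_water libraries, beside 7.34% of the genes at the floor. They all lay below in 0 members, beside 9.39% of the genes at the floor. The log2 ratio of the irrigated means, LRM over water, was above 0.5 in 3 members, Traes_5AS_533D0D0E1, Traes_5DS_A92D3B63C and Traes_4AL_23A71AE94, at 0.73, 0.62 and 0.53. It lay between -0.25 and 0.25 in 75 members.

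**Figure D5:**
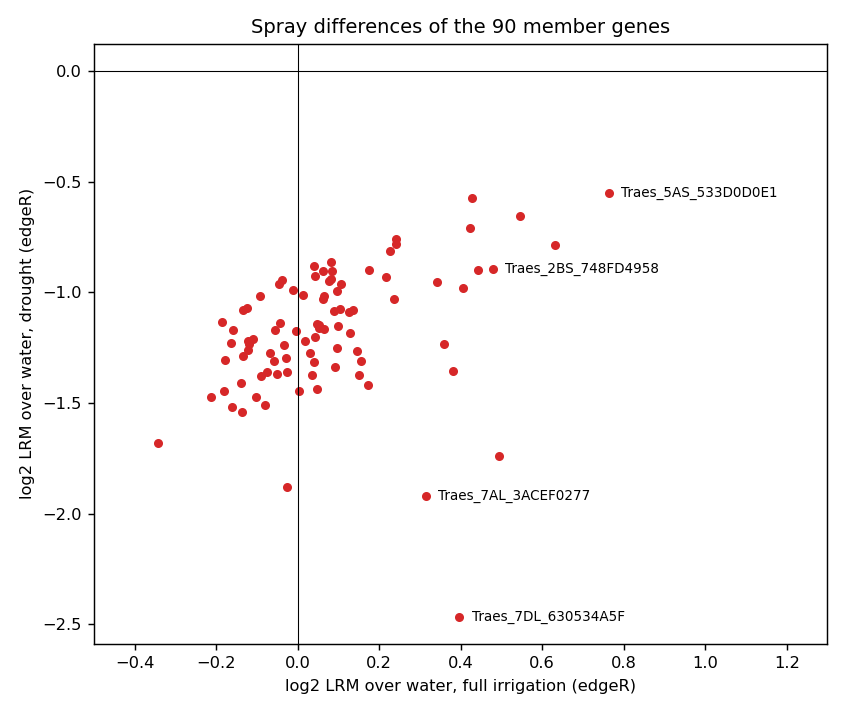
Each point is 1 of the 90 member genes, with edgeR's log2 difference of LRM against water in irrigated leaves on the horizontal and in droughted leaves on the vertical axis. All members lie below 0 on the vertical axis, as the rule requires, while on the horizontal axis 55 lie above 0 and 35 below.

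Between the sprays under drought the members' log2 difference had a median of -1.17, beside -0.01 over all tested genes, and ran from -2.47 in Traes_7DL_630534A5F to -0.55 in Traes_5AS_533D0D0E1. edgeR called 87 of the 90 lower with LRM, beside 4.23% of all tested genes, and nothing is read from this, as the rule used the separation of these libraries. The other 3, Traes_1AL_CA17722B6, Traes_4AL_23A71AE94 and Traes_5AS_533D0D0E1, had differences of -0.76, -0.65 and -0.55. Without drought_water 3, where most members were highest among the droughted libraries, the median was -0.96 and 63 members were called, while lower calls over all tested genes fell from 2420 to 734.

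The interaction of spray and drought was negative in all 90 members with a median of -1.21, beside -0.02 over all tested genes, and was called in 35, beside 0.384% of all tested genes with a negative interaction. The rule fixed both of its parts. The count of called members moved with single libraries. Omitting irrigated_water 1, 2 or 3 gave 18, 6 or 23 called members, and omitting drought_water 1, 2 or 3 gave 52, 6 or 17. Omitting irrigated_LRM 1, 2 or 3 gave 6, 9 or 14, and omitting drought_LRM 1, 2 or 3 gave 22, 15 or 21. Without the farthest library of each group 2 members were called, and DESeq2 called 72 with all libraries. Negative calls over all tested genes moved as well, from 220 with all libraries. They were 80, 12 or 89 without irrigated_water 1, 2 or 3, and 470, 20 or 74 without drought_water 1, 2 or 3. Without irrigated_LRM 1, 2 or 3 they were 22, 21 or 59, and without drought_LRM 1, 2 or 3 they were 138, 67 or 162. They numbered 10 without the farthest libraries and 826 with DESeq2.

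Near each threshold the values inside and outside were close. At the floor Traes_4DL_991239177 was inside with an irrigated mean of 5.08 CPM and Traes_5BL_16DA2DF8A outside with 4.92 CPM. At the limit on L Traes_7AS_DA4CFDB7B was inside with -1.0003 and Traes_7BS_503AEF8A6 outside with -0.998. At the limit on W Traes_2AL_E5A33D194 was inside with -0.2497 and Traes_5BL_991C9C957 outside with -0.253. For the separation, the highest drought_LRM library of Traes_2AL_8CBEE2F6B had 7.87 CPM against 8.15 CPM in the lowest other library. In Traes_5BS_D87BD194D, left outside, these were 2.79 and 2.76 CPM, and its L of -1.84 was lower than that of most members. In both genes the lowest other library was irrigated_water 1.

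By position the members were spread over the genome. They lay on all 21 chromosomes and on 37 of the 41 arms or undivided chromosomes that hold genes at the floor, and each of the 7 chromosome groups had members on its A, B and D chromosome. Subgenome A held 33 members (36.7%), B 27 (30.0%) and D 30 (33.3%), beside 32.3%, 35.3% and 32.4% of the genes at the floor. The arms with most members were 1BL and 6AS with 7 each, of 541 and 344 genes at the floor. On 6AS they ranged from Traes_6AS_937947808 at 6.27 CPM to Traes_6AS_F8D06BEC8 at 1581 CPM in irrigated leaves, with L between -1.18 and -1.03. Arms 1DL, 5BL and 5DL held 5 each. Whether members on matching chromosomes are copies of a gene was not tested.

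Most members had transcripts shorter than the median of the genes at the floor, by the length that the deposited counts and FPKM imply. That length holds only if the second deposited table is FPKM, a unit inferred from its values. Its median was 1209 bases over the members, from 256 to 5228, beside 1911 bases over the genes at the floor. Of the 90 members 70 were below the latter. The median was 1933 bases in the 20 members between 5 and 10 CPM and 1116 bases in the 40 between 10 and 50. It was 1043 bases in the 14 between 50 and 100 and 1374 bases in the 16 of 100 CPM or more. Since a shorter transcript needs more molecules to reach a given CPM, the members stand higher per length than their CPM shows. The genes at the floor had a lower median irrigated CPM (11.5, beside 30.6 in the members), and their lengths were not compared at like CPM. No test was made of the difference in length.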

How the data were processed

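Whole-number read counts per gene identifier were deposited by the authors for 12 libraries, together with a second deposited table taken here to hold FPKM, a unit inferred from its values because the file does not state one. A few of its cells are far above the value implied by the count, 0 of them in members. DESeq2, StringTie, HISAT2 and FastQC are listed, with neither version nor role, in the submitters' processing notes. Genome build, annotation, strand setting and the handling of multiply matching reads: not given in the sources used here. CPM was the count over the library total. The members and lists were chosen with earlier results of these data known. edgeR 4.0.16 (R 4.3.3) gave the quasi-likelihood tests (TMM, filterByExpr, 57226 genes, 1 fit of 4 group means, Benjamini-Hochberg adjustment over all tested genes, threshold 0.05). The 5 comparisons were drought under each spray, LRM under each irrigation, and their interaction. SE was the log2 change over the root of F. Using plain library totals as size factors moved the median of all genes under drought with LRM to 0.16 on the log2 scale. Alternatives used DESeq2 1.42.0, limma 3.58.1 on log2(FPKM + 1), other thresholds and single libraries left out. The edgeR script was tested on simulated data. Every pair of replicates differed by more than sampling noise (lowest chi-square per degree of freedom 4.17). Genes named by rule were those with the lowest L, the highest irrigated CPM, the smallest p in irrigated leaves, the lowest ratio of drought_LRM to the lowest other library, and those nearest each threshold. Marker and pathway lists were not applied, as no identifier had a name.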

Additional observations from a re-analysis of the deposited data

Results flagged for a closer look

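By edgeR's test of the interaction the drought response differed between the sprays in 35 of the 90 members. Over all tested genes 0.384% were called with a negative interaction. The rule favours such calls, as it fixed both parts of that contrast, so nothing is read from the count. Of the 10 members named by rule 6 passed, with an interaction on the log2 scale of -2.86 in Traes_7DL_630534A5F, -2.23 in Traes_7AL_3ACEF0277, -1.31 in Traes_5AS_533D0D0E1, -1.37 in Traes_2BS_748FD4958, -1.08 in Traes_7AS_DA4CFDB7B and -1.18 in Traes_2AL_E5A33D194. The others did not pass by edgeR's adjusted p: -1.17 in Traes_6AS_F8D06BEC8 (adjusted p = 0.0743), -1.03 in Traes_1BL_E38BBC0DA1 (0.0973), -1.06 in Traes_4DL_991239177 (0.116) and -1.21 in Traes_2AL_8CBEE2F6B (0.220).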

How the results depend on the processing

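The number of genes that met the rule was 241 with W allowed up to 0.5 and 17 with W up to 0.1, and 31 without the farthest library of each group. With single libraries left out it ran from 37 to 155. TMM-scaled CPM gave 122 genes, of which 64 were among the 90, because 26 members then had W below -0.25. Under drought with LRM all 90 members were called in each alternative run, an outcome that the rule itself brings about. Lower calls over all tested genes ran there from 2937 with library totals to 5156 with DESeq2. In irrigated leaves DESeq2 called 1 member, and the count was 0 in each other alternative. Under drought with water 31 members were called without the farthest library of each group, where lower calls over all tested genes rose from 49 to 905, and 0 in each other alternative. For the interaction DESeq2 called 72 members, 2 were called without those libraries, and the count ran from 6 to 52 with single libraries left out. Negative calls over all tested genes ran from 12 to 470 in the single omissions. The cause of these shifts was not tested. Leaving out the farthest library of each group, by chi-square over all genes, was settled on only after the results of 2 other omissions had been seen, and those were then discarded. One left out irrigated_water 1 and drought_water 3, picked by the member genes' own levels, and it too left fewer genes that met the rule and called members lower under drought with water. The other left out irrigated_water 1, irrigated_LRM 1 and drought_LRM 2, and with it no member was called under drought with water. Among the omissions run, calls at the adjusted threshold under drought with water appeared only where drought_water 3 was left out together with irrigated_water 1. At an unadjusted p below 0.05 edgeR's test gave 38 members without drought_water 3 alone and 34 without irrigated_water 1 alone. It gave 0 with all libraries and at most 2 with any other single library left out. The share of all tested genes at that threshold was not recorded for these omissions. At the adjusted threshold 426 of all tested genes were called higher and 49 lower with all libraries. Without drought_water 3 these were 791 and 180, and without irrigated_water 1 they were 190 and 28. Whether the members' gain was particular to them was not tested. For LRM against water under drought the count ran from 63 to 88 with single libraries left out. Lower calls over all tested genes ran from 734 without drought_water 3 to 2765 without irrigated_water 1. The rule used the separation of the drought_LRM libraries, so nothing is read from that count of members. Same-numbered libraries correlated from -0.35 to 0.44 in their deviations over 18 pairs, 7 of them above 0.1. Of the 12 libraries 5 were closest to one of their own number. So few libraries cannot show whether the numbers pair the samples, and the main fit used no pairing. With the replicate block 46 members were called for the interaction, 87 for LRM under drought and 90 for drought with LRM. The rule favours calls in each of these contrasts, so nothing is read from the counts. Over all tested genes negative interaction calls rose from 220 to 360 with the block. Lower calls went from 2420 to 2588 for LRM under drought and from 4921 to 4848 for drought with LRM. Depth limits the members near 5 CPM most, chiefly in drought_LRM 2.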

Other observations

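The mirror image of the rule, with L of at least 1 and the lowest drought_LRM library above the other 9 at the same floor and limits on W, was met by 76 genes. Their median L was 1.13 and their median W 0.17, and W was above 0 in 75 of the 76 (98.7%), where it was above 0 in 9 of the 90 members (10%). In both sets most W values thus had the sign of L, within the limits of the rule.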
